A study of Mus musculus with 6 samples.

Results

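Integrins are the adhesion receptors with which leukocytes hold to vessel walls, matrix and opsonised particles. The 10 chains described here are the alpha and beta subunits best known from blood cells, namely Itgal, Itgam, Itgax, Itgad, Itgb2, Itga4, Itga6, Itgb1, Itgb7 and Itga2b. They were taken by gene name from a deposited count table of 56748 genes, each matched 1 row, and all 10 passed the filter on low counts that left 15963 genes for testing.

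The libraries are bulk RNA sequencing of mouse leukemia driven by MLL-AF9, a fusion of a histone methyltransferase with a partner protein that makes an acute myeloid leukemia of myeloid progenitors. There were 3 libraries labelled Rbm5 knockout (KO, numbers 31, 32 and 40) and 3 labelled Rbm5 wild type (WT, numbers 25, 27 and 29), and all of them carry the MLL-AF9 label. RBM5 is an RNA-binding protein of pre-mRNA splicing, and the series asked what RBM5 does to the gene program of MLL leukemia stem cells. The labels name whole bone marrow as the cell type and also mention cultured cells, call the samples independent replicates, and give no age, strain, sex, Cre driver or time of loss.

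An integrin is a heterodimer of 1 alpha and 1 beta chain, and neither chain reaches the cell surface alone. Itgb2 encodes beta 2 (CD18), which pairs with alpha L (Itgal) as LFA-1, with alpha M (Itgam) as Mac-1, and with alpha X (Itgax) and alpha D (Itgad). Beta 1 (Itgb1) and beta 7 (Itgb7) both pair with alpha 4 (Itga4), beta 1 also pairs with alpha 6 (Itga6), a laminin receptor, and alpha IIb (Itga2b) is the platelet fibrinogen receptor chain that pairs with beta 3. In marrow, alpha M rises as myeloid cells mature, whereas alpha 4 and alpha 6 are carried by stem and progenitor cells.

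Library totals ran from 26359299 to 31807588 counts. The targeted gene did not fall in the libraries labelled knockout: Rbm5 was at 269.0, 266.7 and 245.3 CPM in KO and at 227.5, 214.1 and 173.6 CPM in WT (edgeR adjusted p = 0.107), where CPM are counts per 1000000 counts of TMM-scaled library size. The table has 1 count per gene and cannot show the loss of single exons, so KO and WT below are what the libraries were labelled. The Y-linked transcripts Uty, Kdm5d, Eif2s3y and Ddx3y were found in each KO library and had 0 counts in each WT library. Sex and the knockout label therefore cannot be told apart. The X-linked transcript Xist had 13.02, 192.2 and 32.48 CPM in KO libraries 31, 32 and 40. In WT libraries 25, 27 and 29 it had 1625, 1363 and 1269 CPM, and it did not pass the test (edgeR adjusted p = 0.0701). The KO libraries were thus uneven in Xist, with library 32 the highest of them, and the source of this Xist was not tested. None of the 10 integrin chains lies on a sex chromosome, and the part of sex in their levels was not tested. Over all genes tested with edgeR's quasi-likelihood test, 870 were higher and 498 lower in KO at an adjusted p of 0.05, and with total counts as the only scaling the split was 597 and 682.

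Among the 10 chains, both transcripts of Mac-1 rose. Itgam rose 2.04-fold in KO and Itgb2 rose 1.69-fold, Itgad fell to a few counts per library, and the other 7 chains did not pass the test. Itgad passed the filter only through the WT libraries, where it is high. Of the 10 chains, 3 were called in either direction, where 8.57% of all genes tested were called (5.45% higher and 3.12% lower). The median log2 fold change of the 10 chains was -0.03, beside -0.01 over all genes tested. The groups did not overlap for Itgam, Itgb2, Itgad and Itga6, that is for 4 of the 10 chains, against 33.7% of all genes tested.

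**Figure D1:**
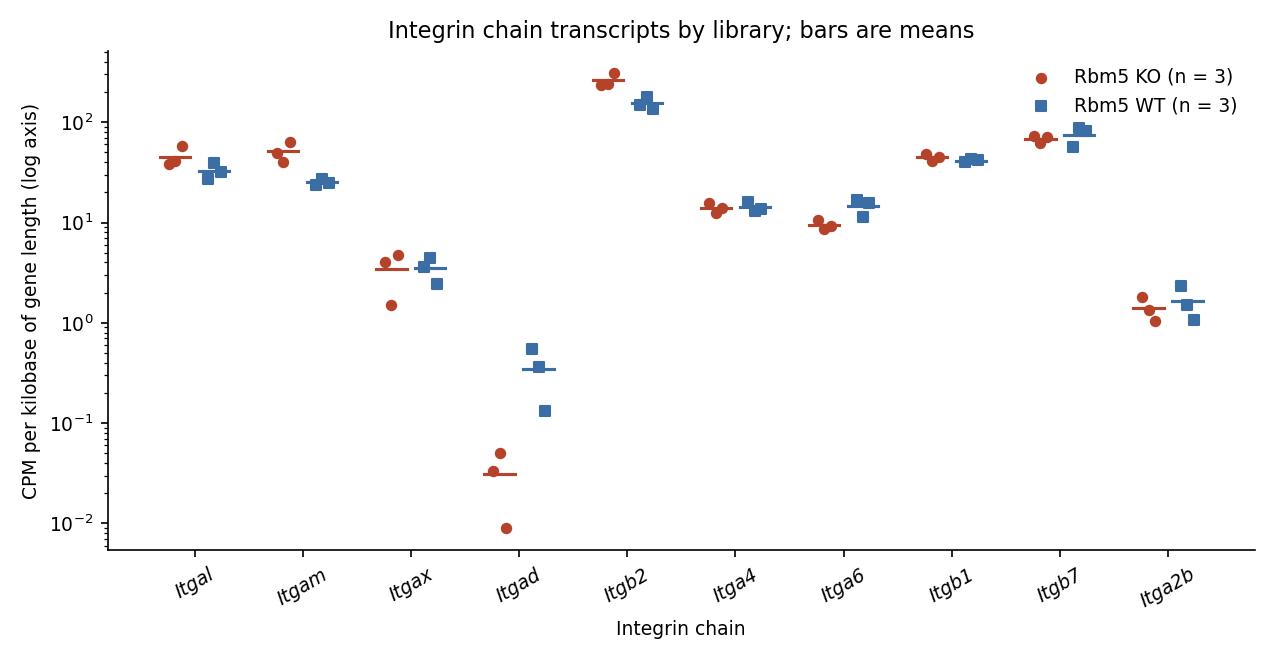
Level of each integrin chain in CPM per kilobase of the table's gene length (log axis) in the 3 KO libraries (circles) and the 3 WT libraries (squares), with group means as bars. Itgam and Itgb2 are higher in every KO library than in any WT library, Itgad is lower, and Itgb2 is the most abundant chain in each library.

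Per kilobase of gene length, Itgb2 stood first in both groups, at 260.7 ± 39.6 CPM per kilobase in KO and 154.1 ± 21.99 CPM per kilobase in WT (SD, n = 3 each). In KO, Itgb7 (68.5 ± 5.21 CPM per kilobase) came next, its lowest library just under the highest of Itgam, and Itgam (51.2 ± 11.8), Itgal (45.5 ± 10.6) and Itgb1 (44.7 ± 3.77) lay within one another's spread. In WT the order on the same scale was Itgb7 (75.3 ± 16.2), Itgb1 (41.5 ± 1.15), Itgal (32.7 ± 5.77) and Itgam (25.1 ± 1.61), and the lowest Itgal library (27.45) stood just above the highest Itgam library (26.95). Itga4 was at 12.31 to 15.72 CPM per kilobase in KO libraries and at 12.99 to 16.13 in WT libraries. Itga6 was at 9.55 ± 1.04 CPM per kilobase in KO, below the range of Itga4, and at 14.6 ± 2.93 in WT, within it. Itgax, Itga2b and Itgad were the scarce chains, with mean levels of 3.42, 1.40 and 0.0310 CPM per kilobase in KO and 3.49, 1.64 and 0.348 in WT. The table's lengths cover all annotated exons of a gene, up to 13978 bases for Itga4, so levels per kilobase depend on how much of that length the cells use.

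Itgam encodes the alpha chain of Mac-1, the receptor with which neutrophils and macrophages bind complement-coated particles, ICAM-1 and fibrinogen. It had 250.4, 202.3 and 319.7 CPM in KO libraries 31, 32 and 40, and 120.1, 135.4 and 123.4 CPM in WT libraries 25, 27 and 29. The lowest KO library was well above the highest WT library, and the KO libraries were more spread out than the WT libraries. The log2 fold change, KO minus WT, was 1.03 ± 0.16 SE (95% confidence interval 0.66 to 1.40, edgeR adjusted p = 0.0127). This call held whichever single library was left out (highest adjusted p = 0.0418, without KO library 31), and was lost (adjusted p = 0.0957) when WT library 25 was the only WT library kept.

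Itgb2 encodes the beta chain without which none of the 4 partner alpha chains is displayed, and its loss causes leukocyte adhesion deficiency in humans. It had 719.8, 731.8 and 934.9 CPM in KO libraries 31, 32 and 40, and 448.9, 545.7 and 416.8 CPM in WT libraries 25, 27 and 29. The groups were separate, with KO library 40 the highest of the 6. The log2 fold change was 0.76 ± 0.15 SE (95% interval 0.42 to 1.09, edgeR adjusted p = 0.0230), and the adjusted p was 0.0712 without KO library 40, 0.0628 without WT library 25, 0.0610 without WT library 29 and 0.0922 with WT library 25 as the only WT library.

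Itgal encodes the alpha chain of LFA-1, which binds ICAM-1 and ICAM-2 and is carried by most leukocytes. Its level was 250.1, 267.4 and 378.4 CPM in KO and 180.3, 255.3 and 208.0 CPM in WT. KO library 31 lay just below WT library 27, so the groups overlapped by that pair. The log2 fold change was 0.48 (95% interval 0.04 to 0.91), and the edgeR adjusted p of 0.154 missed the threshold.

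Itgax, the CD11c chain of dendritic cells and some macrophages, was at 19.3, 7.22 and 22.8 CPM in KO and at 17.4, 21.2 and 11.7 CPM in WT. KO library 32 was the lowest and KO library 40 the highest of the 6, and the log2 fold change was -0.03 with a wide interval of -1.04 to 0.98 (edgeR adjusted p = 0.976). Its sign turned to 0.33 without KO library 32. Itgad, whose chain is known from macrophages, was the scarcest of the 10 and went the other way from Itgam. It had 4, 6 and 1 counts in KO libraries 31, 32 and 40, and 84, 47 and 19 counts in WT libraries 25, 27 and 29. All KO libraries were below all WT libraries, and the WT libraries themselves differed several-fold. On the log2 scale the change was -3.44 ± 0.73 SE (95% interval -5.11 to -1.77, edgeR adjusted p = 0.0300). Itgad reached the count minimum of the filter in the WT libraries only. The call rests on few counts: the adjusted p was 0.102 without KO library 40, 0.0820 without KO library 31, 0.0784 without WT library 25, 0.0671 without WT library 27 and 0.0591 by limma-voom.

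Itgam, Itgax and Itgad are neighbours. By the deposited coordinates, whose build the table does not name, Itgam lies on chromosome 7 at 127661812 to 127717663, Itgax at 127728719 to 127749829 and Itgad at 127753548 to 127822988, all on the plus strand. The gaps between them are 11.1 kb and 3.72 kb, while Itgal starts at 126895432, 728 kb before Itgam. Differences between these neighbours in their response were not tested. Itgam overlaps a predicted gene with at most 11 counts per library, and Itgad overlaps 5 scarce genes with at most 14 counts in a library. No source used here says whether counting used strand, so a part of the few Itgad counts is uncertain.

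The promoters of Itgam and Itgax are shown because these genes are neighbours that share a beta partner, and of the pair only Itgam was called. Promoter sequences in RefSeq's GRCm38.p6 annotation were matched for 6 of the 10 chains (not Itgal, Itgad, Itgb2 or Itga6). Each window runs from 250 bases before to 50 bases after the gene's start, 5′ to 3′ on the plus strand, chr7:128062390-128062689 for Itgam and chr7:128129300-128129599 for Itgax. Capitals mark GAGGAA on either strand, a run of letters that PU.1, a myeloid transcription factor, can bind.
Itgam: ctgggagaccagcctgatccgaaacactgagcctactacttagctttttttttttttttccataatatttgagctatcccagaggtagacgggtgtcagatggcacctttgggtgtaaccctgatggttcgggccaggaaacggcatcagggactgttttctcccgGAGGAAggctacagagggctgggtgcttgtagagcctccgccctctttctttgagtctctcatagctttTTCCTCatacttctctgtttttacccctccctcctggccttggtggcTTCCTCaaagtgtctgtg
Itgax: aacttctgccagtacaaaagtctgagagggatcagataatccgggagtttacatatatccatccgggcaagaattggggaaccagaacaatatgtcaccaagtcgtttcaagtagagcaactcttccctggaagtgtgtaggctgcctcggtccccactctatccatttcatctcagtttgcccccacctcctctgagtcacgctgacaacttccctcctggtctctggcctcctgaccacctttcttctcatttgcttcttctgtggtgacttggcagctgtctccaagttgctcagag
The Itgam window held 3 such matches, at positions 167, 236 and 283 counted from 1 at its 5′ end, and the Itgax window held 0. Of 32851 promoter windows of the same length, 28.3% held at least 1 match and 4.8% held 2 or more. The windows of Itga2b, Itgb1 and Itgb7 held 2, 1 and 1, and that of Itga4 held 0, so matches were present in windows of chains that did not pass the test as well. The shorter run GGAA, which lies within GAGGAA, occurred 5 times in the Itgam window and 4 times in the Itgax window. It was present in 96.0% of all windows. Of the other runs searched, GATAA occurred 0 times in Itgam and 1 time in Itgax, and TTGCNNAA 0 times in both. A match is only a run of letters and was not tested for binding.

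Because all 4 partner alpha chains pair with beta 2, their shares of the summed counts per kilobase were compared within each library, which needs no scaling between libraries. Itgam made up 54.2%, 48.8% and 50.5% of the beta 2 partner transcripts in KO libraries 31, 32 and 40, and 43.04%, 38.17% and 41.78% in WT libraries 25, 27 and 29. The means were 51.2% ± 2.76 in KO and 41.0% ± 2.53 in WT (SD, n = 3 each), a difference of 10.2 percentage points. In an exact two-sided permutation test over libraries p was 0.10, the smallest that 3 against 3 can give. Itgal took 45.5% ± 3.96 in KO and 52.8% ± 2.95 in WT, and Itgax 3.32% ± 1.33 in KO and 5.64% ± 1.31 in WT. Itgad stayed under 1% in each library, at most 0.0616% in KO and at most 0.987% in WT. The ratio of the 4 alpha chains together to Itgb2, per kilobase, was 0.390, 0.344 and 0.411 in KO and 0.377, 0.395 and 0.430 in WT, and these ranges overlapped.

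**Figure D2:**
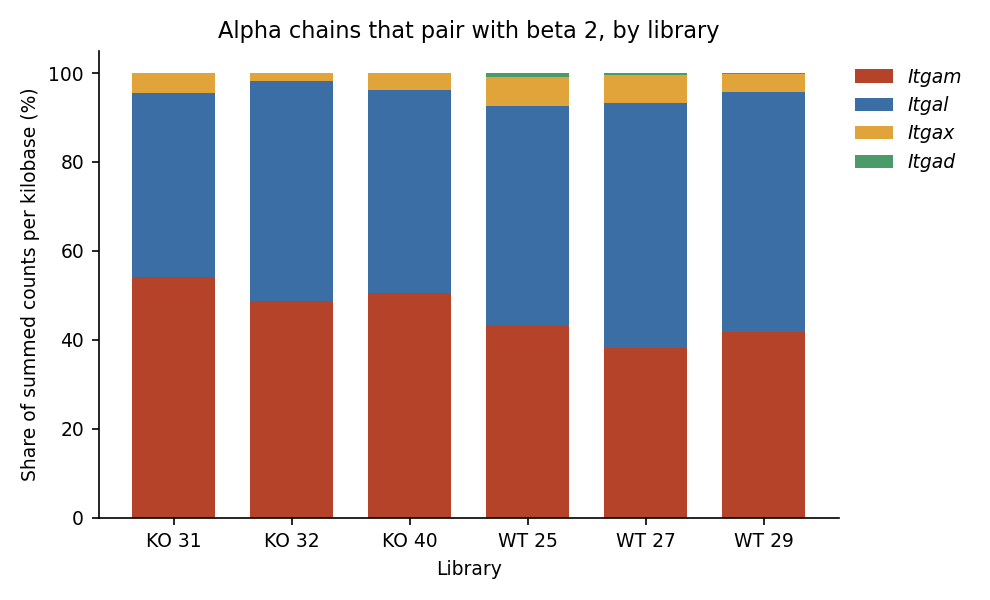
Share of each alpha chain in the summed counts per kilobase of the 4 chains that pair with beta 2 (vertical axis, percent), in KO libraries 31, 32 and 40 and WT libraries 25, 27 and 29. The Itgam share is 48.8% to 54.2% in KO and 38.17% to 43.04% in WT.

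The beta 1 and beta 7 receptors, through which blood cells hold to VCAM-1, fibronectin and laminin, gave no call. Itga4, the alpha chain of VLA-4, had 219.8, 172.1 and 195.2 CPM in KO and 225.5, 181.6 and 192.6 CPM in WT. The groups overlapped, with a log2 fold change of -0.03 (95% interval -0.32 to 0.25, edgeR adjusted p = 0.904). Itgb1 was at 197.8, 167.1 and 182.5 CPM in KO and at 164.4, 173.6 and 170.3 CPM in WT (log2 fold change 0.11, 95% interval -0.11 to 0.32, edgeR adjusted p = 0.503), and at -0.018 with total counts as the only scaling. Itgb7, the partner of alpha 4 in the gut-homing receptor, was at 200.9, 173.5 and 195.1 CPM in KO and at 157.6, 241.1 and 227.4 CPM in WT. WT library 25 was the lowest of the 6 and WT library 27 the highest, and the log2 fold change was -0.14 (95% interval -0.50 to 0.23, edgeR adjusted p = 0.628), which turned to 0.26 with WT library 25 as the only WT library.

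Itga6, the laminin receptor chain of stem and progenitor cells, lay just outside the threshold. It had 97.7, 79.2 and 84.9 CPM in KO libraries 31, 32 and 40, and 154.9, 103.5 and 142.2 CPM in WT libraries 25, 27 and 29. All KO libraries were below all WT libraries, with WT library 27 near the highest KO library. The log2 fold change was -0.61 ± 0.16 SE (95% interval -0.98 to -0.25, edgeR adjusted p = 0.0519). Over the 12 other fits the adjusted p ran from 0.00771 with no filter on low counts to 0.166 without KO library 40, and was under 0.05 in 5 of them, the DESeq2 and total-count fits among them.

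Within libraries, Itga4 stood at 1.471, 1.42 and 1.504 times Itga6 per kilobase in KO and at 0.952, 1.15 and 0.886 times in WT. The groups did not overlap and differed by 0.57 on the log2 scale (exact two-sided permutation p = 0.10, the smallest possible with 3 against 3). The Itgb7 to Itgb1 ratio per kilobase was 1.496, 1.53 and 1.576 in KO and 1.41, 2.05 and 1.97 in WT. Its groups overlapped, and the difference of -0.22 on the log2 scale gave an exact two-sided permutation p of 0.40. Itga4 overlaps Cerkl on the other strand, a gene with at most 312 counts in a library, where Itga4 had 4502 or more.

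Itga2b marks megakaryocytes and platelets and, in the mouse, early blood progenitors. It was at 9.86, 7.26 and 5.72 CPM in KO and at 12.7, 8.23 and 5.83 CPM in WT, with overlapping groups. The log2 fold change was -0.23 (95% interval -0.99 to 0.53, edgeR adjusted p = 0.702), and it was 0.12 without WT library 25. Its partner Itgb3 was at 46.9 ± 9.43 CPM in KO and 55.0 ± 23.8 CPM in WT (edgeR adjusted p = 0.725). Of 12 megakaryocyte and platelet markers, 5 could be tested and 1 was called, where 8.57% of all genes tested were called. The called gene, Gp9, was higher in KO at 2.69 ± 0.641 CPM against 0.888 ± 0.0923 CPM in WT (edgeR adjusted p = 0.0323). In each fit that left out 1 library other than KO library 32, 0 genes of this list were called. The summed level of the 12 markers was 14.8 to 24.7 CPM in KO libraries and 7.29 to 11.9 CPM in WT libraries, and Gp1bb was at 0 counts in WT.

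**Figure D3:**
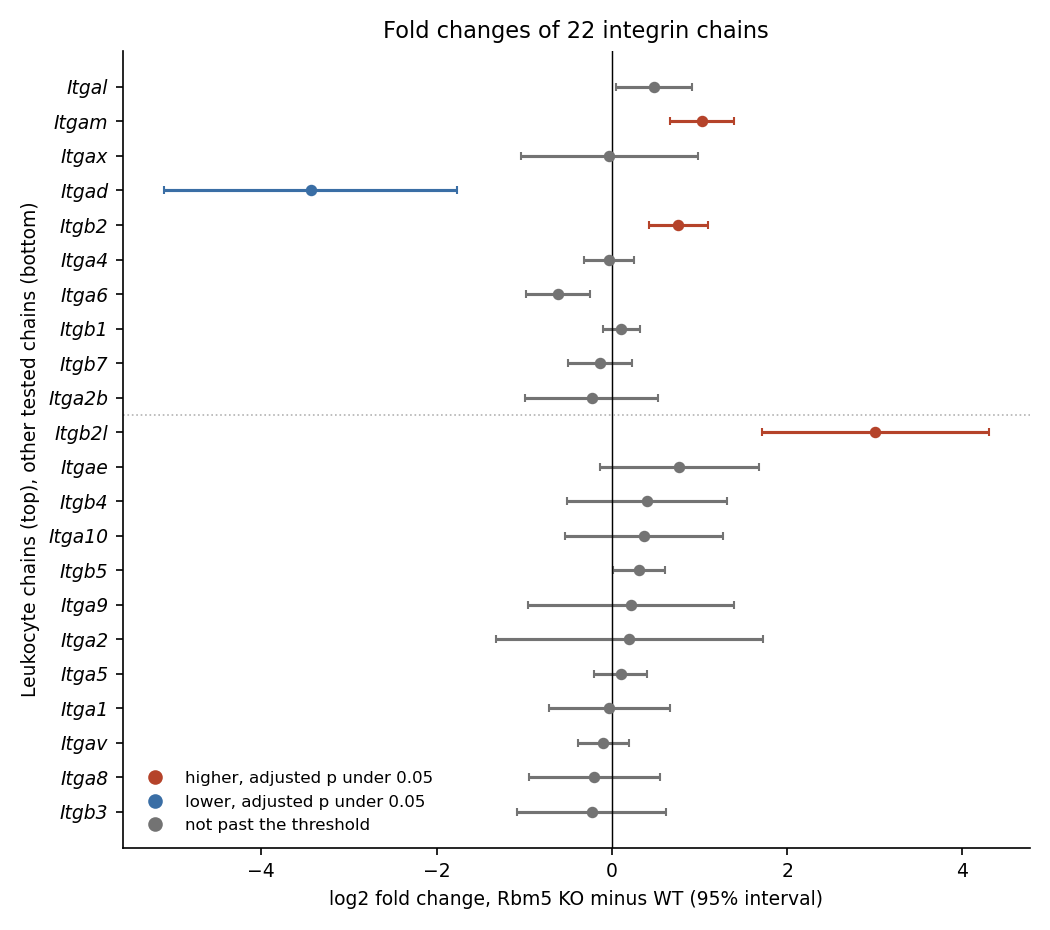
Log2 fold change (KO minus WT) with its 95% interval for the 10 leukocyte chains (above the dotted line) and the 12 other integrin chains that could be tested (below it). Itgam, Itgb2 and Itgb2l passed the threshold as higher and Itgad as lower in KO.

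Among the 17 other integrin chains of the mouse, 12 were tested, 1 rose, 0 fell and 11 did not pass the test, with a median log2 fold change of 0.21. A share of 1 in 12 is near the 8.57% called over all genes tested. The one that rose was Itgb2l, a beta chain closely related in sequence to Itgb2. It was at 191.7, 149.0 and 281.4 CPM in KO libraries 31, 32 and 40 and at 12.2, 22.2 and 43.2 CPM in WT libraries 25, 27 and 29. Each KO library was several times above the highest WT library, and the log2 fold change was 3.01 ± 0.52 SE (edgeR adjusted p = 0.0298). The adjusted p was 0.0970 without WT library 27, 0.0824 without KO library 40, 0.0749 without KO library 31 and 0.0826 with no filter on low counts. Itga5 and Itgav, alpha chains of fibronectin and vitronectin receptors, were at 85.5 ± 11.5 and 39.5 ± 1.40 CPM in KO and at 79.8 ± 9.53 and 42.2 ± 6.12 CPM in WT (edgeR adjusted p = 0.668 and 0.677).

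The 5 protein-coding genes with a CPM profile nearest to that of Itgam over the 6 libraries were Sqor, Dnase1l1, Sec14l1, Rab11fip1 and Tesk2. The root mean square distance between centred log2 CPM profiles was 0.0449 for Sqor and 0.102 for Tesk2, the fifth. Within the 10 leukocyte chains, Itgb2 was nearest to Itgam (0.179), followed by Itgal (0.308), and Itgad was farthest (2.12). All 6 points of each profile come from the same libraries, so these distances describe these libraries.

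Genes that activate integrins from inside the cell and link them to actin were counted over a list of 25. Of these, 22 were tested, 4 rose, 2 fell and 16 did not pass the edgeR test, and the median log2 fold change was 0.39, beside 8.57% called and a median of -0.01 over all genes tested. The number that rose was 2 in each fit that left out 1 library other than KO library 32. It was 12 by DESeq2, which called 1486 of all 17907 genes it tested higher. Fyb, the adaptor ADAP of the RAP1 pathway, had 179.2 ± 28.3 CPM in KO and 85.5 ± 15.5 CPM in WT (log2 fold change 1.07 ± 0.16 SE, edgeR adjusted p = 0.0110). Flna, the actin crosslinker filamin A that binds beta tails, was higher by 0.90 on the log2 scale (edgeR adjusted p = 0.00824) and lies on the X chromosome. Rap1gap, which switches the integrin activator RAP1 off, fell to 6.81, 8.14 and 6.17 CPM in KO libraries, against 30.8, 23.2 and 19.8 CPM in WT libraries (log2 fold change -1.81 ± 0.21 SE, edgeR adjusted p = 0.00498). The adaptor gene Skap2, a binding partner of ADAP that is needed for beta 2 activation in mouse neutrophils, fell to 205.1, 189.8 and 237.3 CPM in KO, against 456.9, 329.0 and 372.1 CPM in WT (edgeR adjusted p = 0.0147). The adjusted p of Skap2 was 0.0524 without KO library 31, and its chromosome is 6. The talin and kindlin genes Tln1 and Fermt3, which bind beta tails directly, had log2 fold changes of 0.40 and 0.22 without passing (edgeR adjusted p = 0.0511 and 0.204).

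Kinases and adaptors that act downstream of engaged leukocyte integrins were counted over a list of 20. Of these, 19 were tested, 8 rose, 0 fell and 11 did not pass the edgeR test, and the median log2 fold change was 0.40, where 5.45% of all genes tested were called higher. With total counts as the only scaling, or without KO library 31 or 40 or WT library 27 or 29, 3 rose, and without WT library 25 there were 2. Fgr, a SRC family kinase of myeloid cells, was at 142.6, 111.9 and 187.3 CPM in KO and at 32.5, 44.2 and 33.9 CPM in WT (log2 fold change 2.00 ± 0.21 SE, edgeR adjusted p = 0.00456). The groups did not overlap, and Fgr passed whichever library was left out. Tyrobp and Fcer1g, the adaptors that couple leukocyte integrins to SYK, were higher by 0.69 and 0.52 on the log2 scale (edgeR adjusted p = 0.0180 and 0.0325). The adjusted p of Tyrobp was 0.0502 without WT library 25 and 0.0550 without WT library 27, and that of Fcer1g was past the threshold only without KO library 32 among the fits that left out 1 library. The focal adhesion kinase gene Ptk2 was at 1.22 ± 0.622 CPM in KO and 2.47 ± 1.12 CPM in WT, and its relative Ptk2b at 198.2 ± 40.5 CPM in KO and 136.0 ± 6.90 CPM in WT (edgeR adjusted p = 0.267 and 0.0551).

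**Figure D4:**
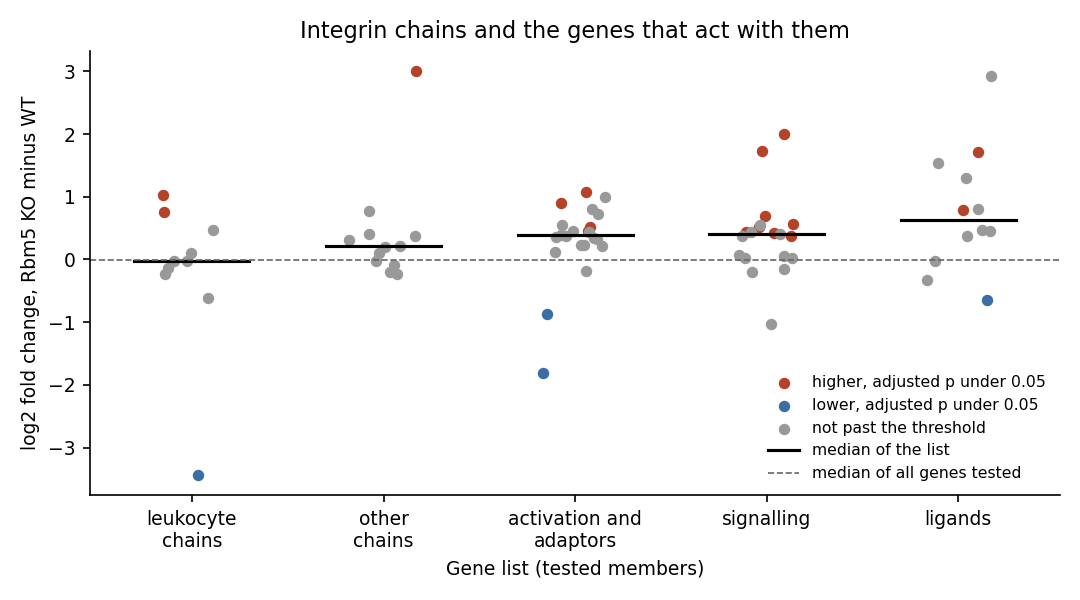
Log2 fold change (KO minus WT, vertical axis) of each tested gene in 5 lists, with the median of each list as a black bar and the median of all genes tested as a dashed line. The list of integrin signalling genes has 8 higher and 0 lower genes, and the 10 leukocyte chains have 2 higher and 1 lower.

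Ligands of these receptors were mixed. Of 20 ligand genes, 12 were tested, 2 rose, 1 fell and 9 did not pass the edgeR test, and the median log2 fold change was 0.63, with 8.57% of all genes tested called in either direction. C3, whose fragment iC3b is bound by alpha M beta 2 and alpha X beta 2, was at 1142, 939.2 and 1400 CPM in KO and at 205.9, 420.0 and 440.8 CPM in WT (log2 fold change 1.71 ± 0.31 SE, edgeR adjusted p = 0.0249). Of the ligands of LFA-1, Icam1 was at 58.5, 56.0 and 80.4 CPM in KO and 37.9, 33.6 and 41.3 CPM in WT (edgeR adjusted p = 0.0250). Icam2 went the other way, at 47.0, 42.0 and 39.3 CPM in KO and 67.9, 56.0 and 77.2 CPM in WT (edgeR adjusted p = 0.0298). Without KO library 31 or 40 no ligand gene passed the edgeR test, and without WT library 27 Icam2 alone did. Icam1 was also lost without WT library 25, and Icam2 without KO library 32 or WT library 25 or 29. The VLA-4 ligand Vcam1 was at 187.8, 369.0 and 328.0 CPM in KO and 214.3, 137.8 and 285.5 CPM in WT, and fibronectin (Fn1) at 947.3, 2791 and 3603 CPM in KO and 797.0, 3483 and 1362 CPM in WT. Both overlapped between groups (edgeR adjusted p = 0.422 and 0.774). The fibrinogen genes Fga, Fgb and Fgg had 0 counts in all 6 libraries.

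Markers of mature neutrophils, which carry Mac-1, moved with these results. Of 14 such markers, 10 rose, 0 fell and 4 did not pass the edgeR test, where 5.45% of all genes tested were called higher. None of the 14 was at 0 in either group. The sum was 11390, 9848 and 17430 CPM in KO libraries 31, 32 and 40, and 808.3, 1838 and 2563 CPM in WT libraries 25, 27 and 29. Among the KO libraries the sum and Itgam had the same order, highest in library 40 and lowest in library 32. Among the WT libraries the sum differed several-fold, with WT library 29 the highest, while Itgam varied less there and was highest in WT library 27. Whether Itgam follows these markers was not tested. The number that rose was 4 without KO library 31, KO library 40 or WT library 27, and 5 with no filter on low counts or with WT library 25 as the only WT library.

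For 14 monocyte and macrophage markers, 2 were called higher (Csf1r and Ms4a7), 0 were lower and 12 did not pass the edgeR test. Over all genes tested, 5.45% were called higher and 3.12% lower. Of the 14, 13 had a positive log2 fold change, with a median of 1.49. An unadjusted p under 0.05 was found for 9, and the share of all genes at that p is not given here. DESeq2 called 6 of the 14, and 1486 higher and 989 lower among all 17907 genes it tested. Ms4a7 had 18, 13 and 28 counts in KO and 3, 1 and 7 counts in WT, so it passed the filter through the KO libraries only. Its edgeR adjusted p of 0.0498 was above the threshold in each fit that left out 1 library, with RLE factors, with total counts and by limma-voom (0.0504 to 0.183). The summed levels of 1601 to 2088 CPM in KO and 1288 to 1892 CPM in WT overlapped, and Ly6c2, the 1 marker with a negative log2 fold change, held much of each sum at 766.8 ± 51.7 CPM in KO and 942.1 ± 276.4 CPM in WT. Without KO library 31 or 40, 0 of these markers were called higher. In the dendritic cell list, 4 of 10 genes were tested, with 0 higher and 1 lower, the MHC class II gene H2-Ab1, and the sums were 86.4 to 266.3 CPM in KO and 268.6 to 316.1 CPM in WT. Without KO library 32, KO library 40, WT library 25 or WT library 29, 0 genes of this list were called. In the eosinophil list, 3 of 8 genes were tested, with 1 higher and 0 lower, and 1 of the 3 had a negative log2 fold change. The 1 called gene, the granule gene Prg2, rose to 41.8 ± 20.8 CPM in KO, against 4.13 ± 1.47 CPM in WT (edgeR adjusted p = 0.0103). The sums of this list overlapped, at 105.8 to 158.9 CPM in KO and 55.5 to 132.6 CPM in WT. The globin gene Hbb-bs had 37, 20 and 22 counts in KO and 6, 1 and 4 counts in WT (edgeR adjusted p = 0.0238) and reached the minimum of the count filter in the KO libraries only. It was the 1 gene called in the erythroid list, where 5 of 10 were tested and 0 were lower. The erythroid sums were 186.9 to 219.0 CPM in KO and 177.8 to 233.7 CPM in WT. The Hbb-bs call was lost without KO library 31 or 40 or WT library 27 or 29.

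In the mast cell and basophil, endothelial and stromal, B cell, and T and NK cell lists, 0 tested genes were called by edgeR, with 2, 2, 0 and 2 at an unadjusted p under 0.05. The share of all genes at that unadjusted p is not given here. DESeq2 called 3, 2, 1 and 1 in these lists, and 1486 higher and 989 lower among all 17907 genes it tested. The members with the smallest p had log2 fold changes of -0.80 (Gata2) and -1.43 (Cpa3) for mast cells and basophils, 1.90 (Col1a1) and -1.07 (Pdgfrb) for endothelium and stroma, 0.55 (Cd79a) and -0.32 (Cd79b) for B cells, and 1.87 (Cd3d) and 2.31 (Cd8a) for T and NK cells, with edgeR adjusted p from 0.0721 (Cd3d) to 0.797 (Cd79b). Sums overlapped for mast cells and basophils (103.8 to 214.7 CPM in KO, 141.2 to 259.2 CPM in WT) and for endothelium and stroma (110.5 to 193.1 CPM in KO, 142.1 to 252.6 CPM in WT). Lymphoid markers were scarce: the 8 B cell markers summed to at most 30.2 CPM in KO and 29.6 CPM in WT, and the 10 T and NK cell markers to at most 59.5 CPM in KO and 64.5 CPM in WT. Cd8a had 28, 12 and 16 counts in KO and 2, 9 and 2 counts in WT, so it passed the filter through the KO libraries only. In bulk RNA, a change in how many cells of a type are present and a change in RNA per cell cannot be told apart. The part of any of these markers' cell types in the integrin results was not tested.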

How the data were processed

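RNA extracted with TRIzol was sequenced by a commercial company, per the labels' protocols. Whole-number counts of each gene in 6 libraries, not normalized, and a gene length were deposited. The submitters' processing notes name Salmon, limma, GRCm38 and mm10 without a role. The counter, strand use and filters are not given in sources used here.

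Groups came from the sample titles. No pair of libraries within a group agreed within sampling noise (lowest chi-square per degree of freedom 39.3). Genes were kept by filterByExpr (minimum count 10, minimum total 15), scaled by TMM and tested with edgeR 4.0.16's robust quasi-likelihood fit in R 4.3.3, KO against WT without covariates, with Benjamini-Hochberg adjustment over all 15963 genes and a threshold of 0.05. SEs were derived from F statistics, and 95% intervals used the t distribution. On data simulated for KO against WT (15963 genes, 200 of them changed, 10 draws), the edgeR procedure recovered 13.4% of genes changed 1.5-fold, 66.1% of those changed 2-fold and 94.8% of those changed 4-fold, and 10.2% of its calls were genes left unchanged, above the nominal 5%. Within-library shares and ratios used counts per kilobase and exact permutation tests. Alternatives were RLE factors, total counts, no filter, DESeq2 1.42.0, limma-voom (3.58.1), each library left out, and 1 WT library kept.

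The members and lists were chosen with earlier results of these data known. Named genes were the 10 chains, Rbm5, per list up to 4 called genes with the smallest p (or the 2 with the smallest p), and the 5 genes nearest to Itgam. Others are named as background to a list and were chosen after their values were seen. Some items within this rule are not reported here. Whether replicates came from separate mice is not stated beyond the word independent, so p-values measure the spread between these libraries. Intervals cover the spread between libraries and counting error.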

Additional observations from a re-analysis of the deposited data

How the results depend on the processing

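Of the 10 chains, Itgam, Itgb2, Itgad, Itgal and Itga6 kept their sign in all 12 alternatives. Signs turned for chains not past the threshold: Itgb1 to -0.018 with total counts, Itgb7 to 0.26 with WT library 25 as the only WT library, Itgax to 0.33, 0.00066 and 0.16 without KO library 32, WT library 25 and WT library 27, Itga4 to 0.053 and 0.063 without KO library 32 and WT library 25, and Itga2b to 0.12 without WT library 25. The B cell marker Cd79b turned to 0.38 without WT library 29 and 0.66 with WT library 25 as the only WT library. Leaving out single libraries, Itgax ran from -0.33 to 0.33, Itga4 from -0.12 to 0.063, Itga2b from -0.46 to 0.12 and Cd79b from -1.11 to 0.38. Total counts alone shifted the median of all genes to -0.135 (log2).

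Counts past the threshold changed as follows. Over all genes, with 870 higher and 498 lower in the main comparison, DESeq2 gave 1486 higher and 989 lower, no filter gave 836 lower, and 1 WT library gave 305 and 148. Leaving out single libraries gave 245 to 787 higher and 102 to 440 lower. Of the 10 chains, 2 were lower with total counts, no filter, DESeq2 and 1 WT library, and 0 by limma-voom. With 1 WT library 0 were higher. Without single libraries, 1 to 2 were higher and 0 to 1 lower. Other integrin chains had 0 higher with no filter and 0 to 1 without single libraries. Activation genes had 2, 8 and 12 higher with total counts, no filter and DESeq2, and without single libraries 2 to 6 higher and 1 to 2 lower. Signalling genes had 3 and 2 higher with total counts and 1 WT library, and 2 to 7 without single libraries. Ligands had 1 higher with no filter, 1 higher and 0 lower with 1 WT library, and 0 to 2 higher and 0 to 1 lower without single libraries. With 1 WT library the spread comes from the KO libraries alone. The cause of these changes was not tested.

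Without single libraries, the alpha M share differed by 8.66 to 11.4 percentage points, the Itga4 to Itga6 ratio by 0.487 to 0.673 and the Itgb7 to Itgb1 ratio by -0.387 to -0.12 on the log2 scale, and 3 against 2 cannot give an exact permutation p below 0.10. No paired analysis was possible because the library numbers are not shared between groups. Depth limits Itgad most, with 1 to 6 counts per KO library.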
